A study of Mus musculus with 4 samples.

Results

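ATAC-seq maps open chromatin by sequencing the DNA fragments that a transposase can reach, and it gave 117282 peaks in mesenchymal stem cells (MSCs) of mouse bone, and 301 of these peaks lay at microRNA genes away from promoters of protein-coding genes. They were the autosomal peaks narrower than 8000 bp that overlapped a gene of type miRNA in the GENCODE vM21 annotation of GRCm38 (mm10), or lay within 1 kb of one, and were more than 2 kb from every protein-coding transcript start. The rule used position and width alone, not the measured values. The samples were 2 of MSCs from old mice (from 18 to 22 months of age) and 2 from young mice (from 3 to 5 months of age). All 4 were cultured at 2% O2, none carried an allele or treatment named in the labels, and the labels gave neither strain nor sex. Nothing stated whether samples of an age came from separate animals or pools, so p-values measure only the spread between these samples.

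MicroRNAs are short RNAs cut from hairpin precursors, and they lower the translation and stability of messenger RNAs that pair with bases 2 to 8 of the microRNA, called the seed. In bone MSCs several of them promote or restrain osteoblast differentiation, and others rise with senescence or inflammation. A hairpin can have its own promoter, lie in the intron of a host gene, or share one long primary transcript with other hairpins, so a peak at a hairpin may belong to an enhancer, to an exon or intron of the host or to the start of the primary transcript. Accessibility at a hairpin is not a measurement of the microRNA itself.

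The annotation held 2202 miRNA genes, 2054 of them autosomal. Of all peaks, 616 overlapped a miRNA gene or lay within 1 kb of one, 606 of them on autosomes. Among the autosomal ones, 98 were 8000 bp or wider and 280 were within 2 kb of a protein-coding start, with 73 in both classes. Among the remaining 301 peaks, 148 overlapped a miRNA gene and 153 lay within 1 kb only. They lay at 326 miRNA genes, 167 of which were overlapped. Of the 326 genes, 121 carried a Gm number or another name that is not a Mir symbol. Some of these, Gm23363 among them, still had an entry in RefSeq. Most peaks (285) lay at 1 miRNA gene and 16 lay at 2 or more. At the edges of the rule, the widest peak inside it was 7800 bp wide (Mir8108) and the narrowest just outside was 8000 bp wide (Mir7031). The gap to the miRNA gene was 995 bp just inside (Gm25951) and 1009 bp just outside (Gm25991). The distance to a protein-coding start was 2038 bp just inside (Mir3083) and 1915 bp just outside (Gm44463).

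Mature sequences were taken from RefSeq (GRCm38.p6), which held an entry for 189 of the 326 genes and mature arms for 186. Their 313 mature arms had 285 different seeds, and 21 seeds were shared by 2 or more genes. The first set below is shown because a single peak, at chr14:115039601-115043800, overlapped Mir17 and ended before the 5 other hairpins of the Mir17-92 cluster, a cluster known for promoting proliferation. Capitals mark the seed. Mir17 and Mir20a shared 1 seed, Mir19a and Mir19b-1 shared another, and Mir18 and Mir92-1 each had their own.
Mir17 5p arm: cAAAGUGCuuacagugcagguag
Mir20a 5p arm: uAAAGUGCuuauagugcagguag
Mir18 5p arm: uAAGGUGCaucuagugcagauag
Mir19a 3p arm: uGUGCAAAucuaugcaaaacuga
Mir19b-1 3p arm: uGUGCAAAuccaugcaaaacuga
Mir92-1 3p arm: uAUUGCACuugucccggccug

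The second set is the Mir344 family on chromosome 7, shown because its peaks were the most numerous group of neighbours among the 301 and fitted lower in old MSCs. The 5p arms of Mir344, Mir344b, Mir344c and Mir344d-3 had the same seed, which made it the seed shared by most genes at these peaks (4). The same letters stood 1 base further in at Mir344i, which moves its seed by 1 base. The 3p arm of Mir344d-2 and Mir344d-3 was a single sequence.
Mir344 5p arm: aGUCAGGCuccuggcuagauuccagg
Mir344b 5p arm: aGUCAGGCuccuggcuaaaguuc
Mir344c 5p arm: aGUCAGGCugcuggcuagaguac
Mir344d-3 5p arm: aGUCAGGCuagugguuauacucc
Mir344d-2 5p arm: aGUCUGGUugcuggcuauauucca
Mir344i: aAGUCAGGcuccuggcugga
Mir344d-2 and Mir344d-3 3p arm: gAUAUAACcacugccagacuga

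The largest fall among the 301 peaks lay over Gm24923, an 88-base gene on the minus strand at chr7:62078718-62078805 that the annotation leaves without a Mir symbol. Compared with 1005 mouse hairpins of RefSeq by global alignment, it matched Mir344i at 85 of its 88 bases, and the 13 best-scoring hairpins were the 13 of the Mir344 family. The 300 bases of GRCm38 around it, chr7:62078612-62078911 on the minus strand, are given with the gene in capitals.
Gm24923: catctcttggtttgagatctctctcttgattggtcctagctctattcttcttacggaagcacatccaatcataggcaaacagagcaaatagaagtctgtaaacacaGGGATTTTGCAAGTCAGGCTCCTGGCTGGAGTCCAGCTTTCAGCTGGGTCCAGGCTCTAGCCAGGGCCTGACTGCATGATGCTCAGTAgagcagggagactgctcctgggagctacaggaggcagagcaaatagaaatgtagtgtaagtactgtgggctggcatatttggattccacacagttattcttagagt

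The sequence around Mir6390 is shown because its peak was the only one of the 301 past the threshold of the test. The window is chr14:105623557-105623856 on the minus strand, with the 129-base hairpin in capitals. The hairpin lies within the long non-coding RNA (lncRNA) gene Gm6145, on the same strand.
Mir6390 mature RNA: gAAUUGAUcaggauguaacca
Mir6390 window: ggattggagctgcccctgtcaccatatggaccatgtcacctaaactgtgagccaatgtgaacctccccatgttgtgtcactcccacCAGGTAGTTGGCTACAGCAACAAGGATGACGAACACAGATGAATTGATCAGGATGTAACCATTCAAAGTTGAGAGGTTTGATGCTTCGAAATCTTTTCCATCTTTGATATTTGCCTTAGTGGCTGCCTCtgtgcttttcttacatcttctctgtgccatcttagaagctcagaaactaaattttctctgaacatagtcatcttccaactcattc

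The deposited values were whole multiples of 1 step per library, so that they could be read back as counts per 10000000, and they were not divided by peak width. Library totals ran from 28259470 to 32559794, and 3 counts equalled a value between 0.921 and 1.06. Values below were divided by factors of the relative log expression method (RLE), which sets the typical peak of all 117282 to no change and ranged from 0.813 in old replicate 1 to 1.15 in young replicate 2. The median peak at a microRNA gene had 57 and 80 counts in the old samples and 63 and 67 counts in the young samples. At most 4 of the 301 were at 3 counts or fewer in any library.

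The microRNA peaks were broader and stronger than other distal peaks, here the 96541 autosomal peaks under 8000 bp that lay more than 2 kb from protein-coding starts, the 301 included. Their median width was 1500 bp against 1000 bp, and their median RLE-scaled value was 22.6 against 13.6. Per kb the medians were close, 13.4 against 12.6. Peaks that overlapped the miRNA gene were the broadest, with a median of 2200 bp and a scaled value of 33.7, against 1200 bp and 15.3 for those within 1 kb only. GC content was 48.9% at the median, against 45.3% in distal peaks. The centre of the peak lay upstream of the 5′ end of the closest hairpin in 142 cases and downstream in 159, and within 500 bp of it in 91.

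By annotation, 91 peaks were intergenic, 87 lay in introns and 82 over exons of protein-coding genes, and 24 lay over exons and 17 in introns of lncRNA genes. The closest miRNA gene sat on the same strand within a protein-coding gene in 122 cases and within a lncRNA gene in 36. The rule did not exclude starts of lncRNA genes, and 31 of the 301 peaks lay within 2 kb of one. Motif letters were searched on both strands in the central 300 bp. None of the strings contains another. The AP-1 motif TGANTCA was found in 15.3% of the microRNA peaks and in 23.8% of distal peaks. TGTGGTT, bound by RUNX factors, which include the osteoblast regulator Runx2, was found in 7.97% against 10.8%. GGAATG, of TEAD factors, was found in 18.6% against 22.1%, and CCAAT in 31.9% against 34.3%. Most of the sequence under these peaks was single-copy: in 270 of the 301, at least 90% of all 31-base words occurred once in the assembled chromosomes. In 5 peaks, all named with Gm numbers, fewer than 50% did.

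The microRNA genes with peaks were checked against lists of cell type markers. Of 13 miRNA genes known from mesenchymal cells, among them Mir143, Mir145a, Mir199a-1, Mir214 and Mir21a, 11 had a peak of any kind, with summed scaled values of 2855 and 4056 in the old samples and of 3045 and 3182 in the young samples. Peaks of Mir199a-1 and Mir199b were among the 301. The Mir199a-1 peak had scaled values of 190 and 280 in the old samples and 207 and 200 in the young samples, and the Mir199b peak had 117 and 242 against 131 and 99.7, with old replicate 2 far above the others. Of 7 annotated blood miRNA genes, Mir150, Mir155 and Mir486 had a peak, and Mir142, Mir223, Mir144 and Mir451a, which define blood lineages, had none. The Mir486 peak, one of the 301, lay in an intron of Ank1, which encodes an erythrocyte ankyrin, and had 69.7 and 66.8 in the old samples against 61.4 and 64.4 in the young samples (log2 fold change 0.12, SE 0.19, adjusted p = 0.808). The summed blood list ran from 383 to 539 in the old samples and from 420 to 434 in the young samples, most of it in a promoter peak 14000 bp wide at Mir150. Muscle genes had 2 of 9 (Mir206 and Mir133a-1) with sums of 57.9 and 80.9 against 75.3 and 75.4, neural genes 4 of 9 with 92.5 and 96.7 against 84.3 and 115, and epithelial genes 3 of 7 with 86.3 and 93.8 against 63.8 and 87.2. The endothelial Mir126a had 113 and 123 against 82.2 and 103, and of 4 liver and pancreas genes only Mir375 had a peak. At promoters, Ly6a (Sca-1) and Pdgfra (CD140a), the positive sort markers stated for this laboratory's MSCs, had peaks in all samples, and Ptprc (CD45), Cdh5 and Cdh1 had none. The macrophage gene Csf1r had 77.5 and 119 in the old samples against 88.6 and 89.3 in the young samples, and Pecam1, Epcam and Spi1 had summed values from 6.45 to 21.3. Their part in the results below was not tested.

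To ask whether accessibility at microRNA genes differed with age, each of the 117282 peaks was tested with limma on log2(scaled value + 1). At an adjusted p under 0.01, 1 of the 301 microRNA peaks was higher in old MSCs (Mir6390) and 0 were lower, where 0.0256% of all peaks were called higher and 0.0307% lower (0.0563% in either direction). At an unadjusted p under 0.05, 39 microRNA peaks (13.0%) were higher and 15 (4.98%) lower, against 7.49% and 8.87% of all peaks. The counts of calls depended on 1 library: without old replicate 1, 19 were called higher (6.31%) and 15 lower (4.98%), against 3.35% and 5.45% of all peaks, and without old replicate 2 there were 2 of each (0.664%), against 0.393% and 1.05% of all peaks, where the single sample left in the old group was assumed to vary like the young ones. For a single peak an exact permutation test of 2 against 2 samples cannot go below p = 0.33. Since cells were measured in bulk, fewer cells with an open site and less opening per cell cannot be told apart.

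As a group, the microRNA peaks lay somewhat higher in old MSCs than the typical peak. Their median log2 fold change, old over young, was 0.12, against 0.0011 over all peaks and 0.011 over distal peaks, and when each old sample was set against each young sample (4 pairs) the median over the 301 ran from 0.047 to 0.18. The fitted value was above 0 in 189 and below 0 in 112. In all 4 pairs, 101 peaks (33.6%) were higher in old MSCs, where 23.2% of all peaks and 24.6% of distal peaks were, and 51 (16.9%) were lower, where 24.2% of all peaks and 23.9% of distal peaks were. The direction against 0 depended on the scale: with the values as deposited, per library total, the median was -0.15 for the microRNA peaks, -0.27 for all peaks and -0.26 for distal peaks. Summed over all peaks, the deposited values made up 43.8% and 50.3% of the library total in the old samples. In the young samples they made up 57.5% and 62.9%. On that scale 106 microRNA peaks (35.2%) were lower in all 4 pairs and 33 (11.0%) higher, where 43.5% of all peaks were lower and 7.56% higher. On both scales the microRNA peaks thus lay above the typical peak. Without old replicate 1 the deposited median was 0.0031.

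**Figure D1:**
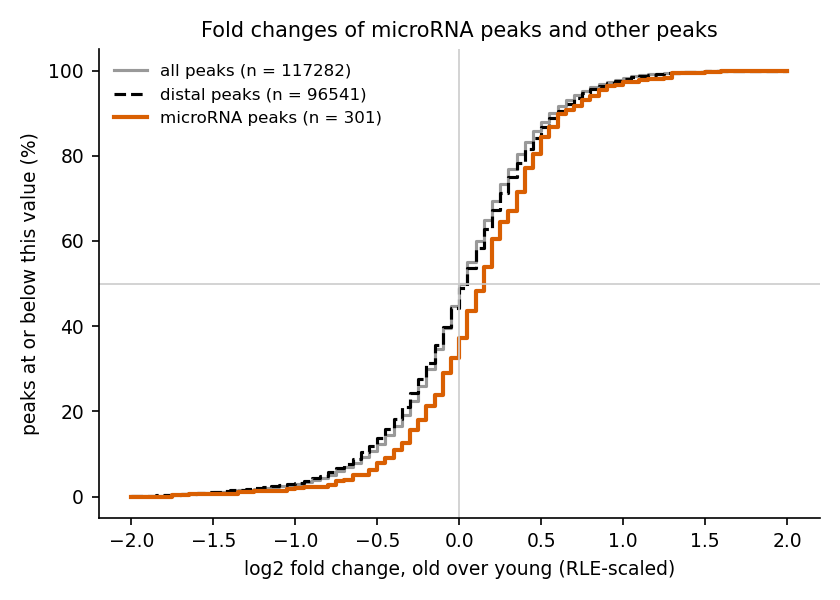
Cumulative share of peaks (y axis, %) at or below each log2 fold change of old over young MSCs (x axis, RLE-scaled values) for the 301 peaks at microRNA genes, for distal peaks and for all peaks. The curve of the microRNA peaks runs to the right of the other curves through its middle part, with its median at 0.12 and theirs at 0.011 and 0.0011.

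GC content moved with this difference. Over 5 bins of GC content with about equal numbers of distal peaks, the median log2 fold change of distal peaks went from -0.18 in the lowest bin over -0.063, 0.0082 and 0.081 to 0.17 in the highest. The microRNA peaks went from -0.28 over -0.063, 0.10 and 0.12 to 0.19, and 134 of the 301 fell into the highest bin, above 49.7% GC. The trend depended on the samples compared. For old replicate 1 against young replicate 1, the distal median went from 0.0077 in the lowest bin to 0.052 in the highest, and the microRNA median from 0.089 to 0.078. For old replicate 2 against young replicate 2, they went from -0.38 to 0.29 and from -0.62 to 0.34. After a correction for GC content and width the median was 0.064 for the microRNA peaks and 0.024 for distal peaks and 87 microRNA peaks (28.9%) were higher in all 4 pairs and 50 (16.6%) lower, where 25.4% of distal peaks were higher and 23.0% lower. Whether the rest of the difference goes with GC content was not tested.

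**Figure D2:**
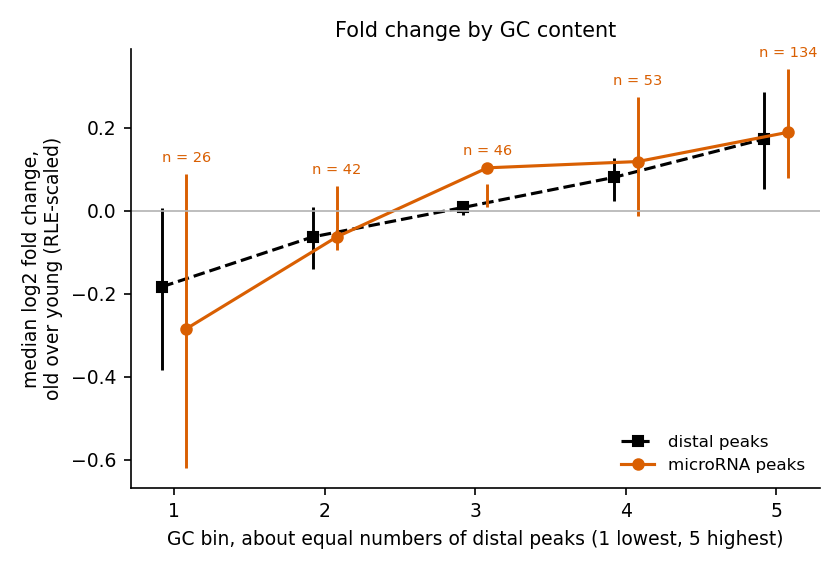
Median log2 fold change of old over young MSCs (y axis, RLE-scaled) by bin of GC content (x axis, 5 bins with about equal numbers of distal peaks), for microRNA peaks with their number and for distal peaks. Points are medians of the fitted values and vertical lines span the medians of the 4 old-young pairs. Both series rise from the lowest to the highest bin, from -0.28 to 0.19 and from -0.18 to 0.17.

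The shift was not even over the annotation classes. Among distal peaks 24.6% were higher in all 4 pairs and 23.9% lower. The 82 peaks over exons of protein-coding genes had a median log2 fold change of 0.20, with 35 (42.7%) higher in all 4 pairs and 10 (12.2%) lower, and a median GC content of 52.2%. The 87 in introns of protein-coding genes had a median of 0.024, with 24 (27.6%) higher and 18 (20.7%) lower, at 47.9% GC. Of the 17 peaks in lncRNA introns, 5 (29.4%) were lower in all 4 pairs and 0 higher, with a median of -0.25 at 43.7% GC, and 4 of these peaks belonged to the Mir344 genes. Peaks that overlapped the miRNA gene and peaks within 1 kb only had nearly the same median, 0.12 in each. At an unadjusted p under 0.05 (limma), 28 (18.9%) and 11 (7.19%) of them were higher, against 8.06% of distal peaks and 7.49% of all peaks. The overlapping peaks were also the stronger, at a median scaled value of 33.7 against 15.3. The 28 peaks on chromosome 7 had a median of -0.16, and 7 of them were the peaks of the Mir344 group described below, with a median of -1.02. The 26 on chromosome 11 had a median of 0.17. Other chromosomes were not summarized. These differences between classes were not tested.

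Mir6390 was the 1 microRNA gene whose peak passed the threshold. The peak, chr14:105622301-105624200, overlapped the hairpin and an exon of a lncRNA gene. The hairpin lies within 2 lncRNA genes, Gm6145 on the same strand and 9330188P03Rik on the opposite strand. The peak lay 272619 bp from the nearest protein-coding start, that of Spry2, which encodes a feedback inhibitor of receptor tyrosine kinase signalling. Its scaled values were 92.1 and 90.6 in the old samples and 39.1 and 36.5 in the young samples, so that the groups lay far apart and each pair of replicates close together. The means were 91.3 ± 1.07 (SD, n = 2) and 37.8 ± 1.87 (SD, n = 2). The log2 fold change was 1.25 with an SE of 0.19 and an adjusted p of 0.00878 (limma). From 511 and 241 counts the scaled ratio was 2.42, with a 95% interval from 2.07 to 2.83 that covers counting error only. With the values as deposited the log2 fold change was 0.97 and the adjusted p 0.0296. The call was also lost without young replicate 1 (adjusted p = 0.122) and without young replicate 2 (adjusted p = 0.209), with log2 fold changes of 1.30 and 1.20. At 41.7% its GC content was below the median of distal peaks, and after the GC and width correction the log2 fold change was 1.37 (adjusted p = 0.00222). Of its 31-base words 98.7% were single-copy.

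The Mir344 genes showed the opposite direction over a long stretch. From the first to the last of their peaks, chr7:61685001-62085500, the annotation places 17 miRNA genes in 400500 bp, 7 of them within 1 kb of a peak, and the stretch held 7 peaks, all of them among the 301. The nearest protein-coding start was that of Ndn, an imprinted gene of the region altered in Prader-Willi syndrome, between 261069 and 660769 bp away. Apart from the peaks named below by the fixed rule (Gm24923, Mir344c and Mir344b), this group was chosen after its values were seen. All 7 peaks fitted lower in old MSCs, 5 were lower in all 4 pairs and 4 had an unadjusted p under 0.05, with a median log2 fold change of -1.02. Summed over the 7, the scaled values were 28.8 and 28.4 in the old samples and 60.0 and 68.6 in the young samples, a log2 ratio of -1.14.

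The Gm24923 peak, chr7:62078101-62079000, had the lowest log2 fold change of the 301. Its scaled values were 4.30 and 5.49 in the old samples and 20.2 and 18.1 in the young samples, so that both old values were far below both young values. The log2 fold change was -1.78 with an SE of 0.31, and the adjusted p of 0.0147 missed the threshold. With the values as deposited it was -2.03 and passed it, with an adjusted p of 0.000585. From 28 and 122 counts the scaled ratio was 0.261, with a 95% counting interval from 0.167 to 0.397. Leaving out either old sample also brought the adjusted p below the threshold, at 5.83e-05 without old replicate 1 and 1.77e-05 without old replicate 2, while it was 0.176 without young replicate 1 and 0.172 without young replicate 2. The Mir344c peak, chr7:61837101-61837700, had scaled values of 6.45 and 5.49 against 13.9 and 17.5, again without overlap. Its log2 fold change was -1.26 with an SE of 0.31 and an adjusted p of 0.0553, and with the values as deposited the adjusted p was 0.00763.

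The other 5 peaks of the stretch were weaker. Mir344b had scaled values of 3.01 and 0.915 against 3.98 and 5.64 (log2 fold change -1.05, adjusted p = 0.267). Mir344i had 4.73 and 1.52 against 7.63 and 5.94 (log2 fold change -1.02, adjusted p = 0.247). Both were lower in all 4 pairs, as was Mir344, with 2.15 and 3.96 against 4.64 and 5.94 and a log2 fold change of -0.66. In Mir344d-2 (6.02 and 7.93 against 7.30 and 10.1) and Mir344d-3 (2.15 and 3.05 against 2.32 and 5.34) the groups overlapped, with log2 fold changes of -0.28 and -0.36. These last 2 shared the most sequence with other places in the genome: 73.7% of the 31-base words under the Mir344d-3 peak and 89.0% under the Mir344d-2 peak were single-copy, against 97.2% under Gm24923 and 100% under Mir344c. Reads of near-identical copies cannot be told apart in the remaining words. GC content of the 7 peaks ran from 37.9% to 47.2%, and the correction for GC content and width left Gm24923 at -1.59 and Mir344c at -1.15. An equal stretch before the group held 1 peak, with a log2 fold change of 0.071. An equal stretch after the group held 7 peaks with a median of -0.38, of which 3 were lower in all 4 pairs, where 24.2% of all peaks were. One of the 7 in the stretch after, at chr7:62209101-62209800 and not at a miRNA gene, had scaled values of 0.861 and 0.610 against 10.9 and 5.05 (adjusted p = 0.0255).

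**Figure D3:**
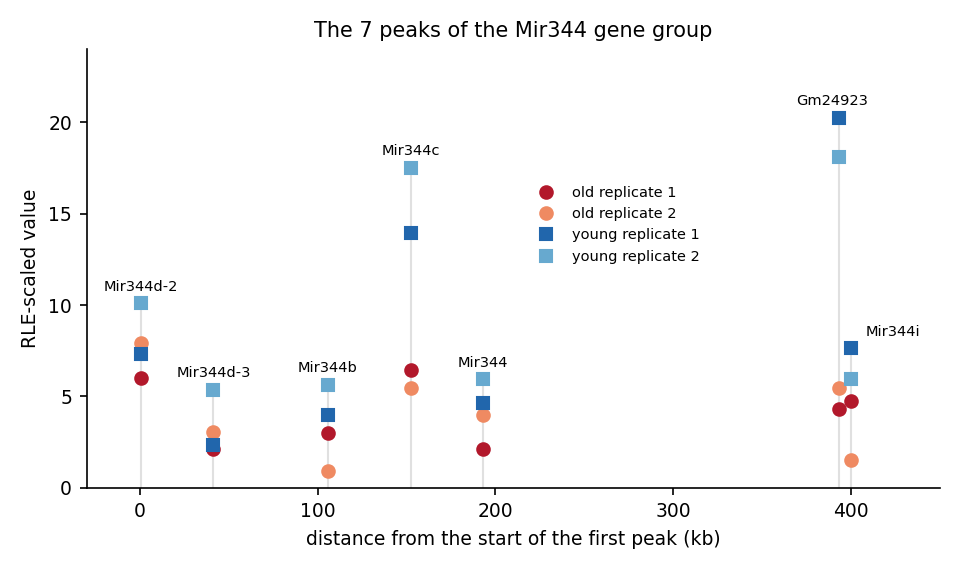
RLE-scaled values (y axis) of the 7 peaks at Mir344 genes by the distance of the peak centre from the start of the first peak in kb (x axis), with circles for the 2 old and squares for the 2 young samples and the closest miRNA gene named at each peak. At Gm24923 and Mir344c the old samples sit between 4.30 and 6.45 and the young samples between 13.9 and 20.2, and at Mir344d-2 and Mir344d-3 the groups overlap.

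Among peaks higher in all 4 pairs, the 5 with the largest log2 fold change were at Mir7237, Gm23158, Gm49347, Mir3473f and Mir6390. Mir7237 lies in Banp, which encodes a nuclear matrix-binding factor, and its peak chr8:121977801-121978500 overlapped the hairpin. Its scaled values were 9.47 and 16.2 in the old samples and 4.98 and 2.37 in the young samples, and the log2 fold change was 1.58 with an SE of 0.39 (adjusted p = 0.0524). Gm23158 (chr4:133557001-133557900) had 12.9 and 12.5 against 3.32 and 4.45, with a log2 fold change of 1.50 (adjusted p = 0.0403). Gm49347 on chromosome 18 had 15.9 and 20.1 against 7.63 and 6.23, with a log2 fold change of 1.26 (adjusted p = 0.0494). The peak 670 bp from Mir3473f, chr1:106547301-106547900, lay in an intron of Bcl2, which encodes an inhibitor of apoptosis. It had 13.8 and 11.9 against 3.65 and 6.23, with a log2 fold change of 1.25 (adjusted p = 0.0746).

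The adjusted p of these 4 was above 0.01 with all samples, and without old replicate 1 it fell below for Mir7237 (0.000267), Gm23158 (0.00854) and Gm49347 (0.00216). The corresponding peaks lower in all 4 pairs were at Gm24923, Gm23631, Gm25690, Mir344c and Mir344b. Gm25690 (chr4:141345101-141345800) had 6.45 and 12.8 in the old samples against 23.9 and 27.6 in the young samples, with a log2 fold change of -1.39 (adjusted p = 0.0370). It passed the threshold with the values as deposited (adjusted p = 0.00304), without old replicate 1 (0.00843) and without old replicate 2 (1.92e-06), and not without young replicate 1 (0.187) or young replicate 2 (0.388). Gm23631 lies in an intron of Adam12, which encodes a metalloprotease, and its peak chr7:133940301-133940600 had 2 counts in each old sample against 22 and 9 in the young samples. The scaled ratio was 0.147, with a 95% counting interval from 0.0377 to 0.416. The adjoining peak at the same gene, chr7:133940601-133941000, had 3.44 and 3.35 against 2.32 and 2.08 and a log2 fold change of 0.46 (adjusted p = 0.639).

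**Figure D4:**
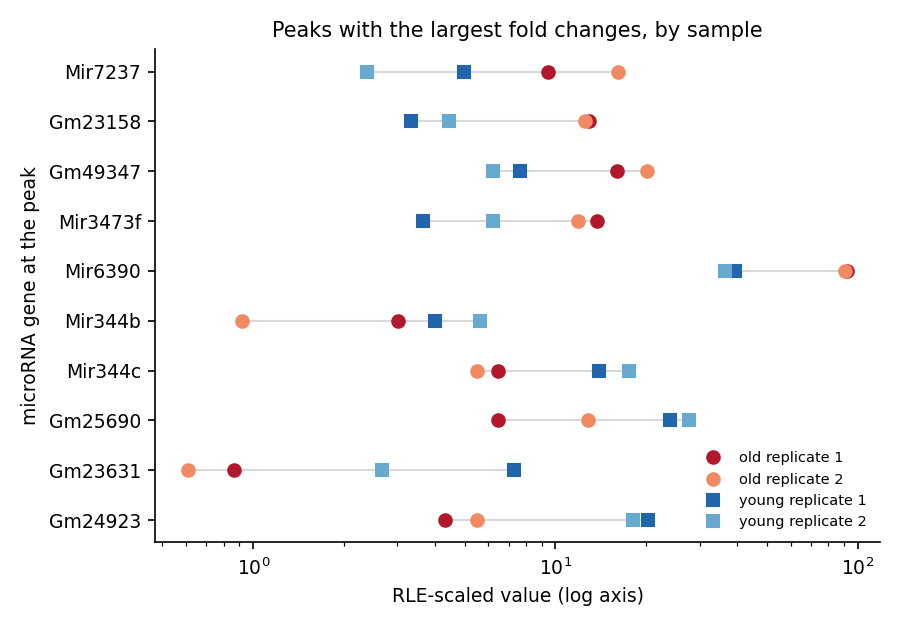
RLE-scaled values (x axis, log scale) of the 5 microRNA peaks with the largest rise and the 5 with the largest fall among those moved the same way in all 4 old-young pairs (y axis, closest miRNA gene), with circles for old and squares for young samples. Mir6390 is the strongest of them, with old samples at 92.1 and 90.6 and young samples at 39.1 and 36.5, and Gm23631 the weakest.

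Peaks at microRNA genes with known roles in bone formation did not pass the threshold. Only 0.0563% of all peaks did, so that lists this short would be likely to hold none. Of 18 pro-osteogenic miRNA genes, 11 had a peak of any kind, and the peaks at Mir26a-1 and Mir148a were among the 301. Mir26a-1, within Ctdspl, had scaled values of 65.4 and 83.3 in the old samples and 62.0 and 55.2 in the young samples, with a log2 fold change of 0.33 and an SE of 0.20 (adjusted p = 0.427). Mir148a had 54.2 and 59.5 against 53.1 and 60.5, with a log2 fold change of 0.0023 and an SE of 0.20. Counting also those that were too wide or at a promoter, the 11 genes had 9 peaks, 0 of them called at an adjusted p under 0.01. At an unadjusted p under 0.05 (limma), 3 were higher and 0 lower, where 7.49% and 8.87% of all peaks were.

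Of 31 anti-osteogenic miRNA genes, 18 had a peak and 9 had one among the 301. The 9 had log2 fold changes from -0.49 (Mir211) to 0.54 (Mir135a-1), with 0 called and 0 at an unadjusted p under 0.05. Mir211, in an intron of Trpm1, had 11.6 and 12.2 in the old samples against 16.3 and 18.1 in the young samples, lower in all 4 pairs (adjusted p = 0.389). Mir138-2 had 25.8 and 29.3 against 20.9 and 19.3 and Mir135a-1 had 6.88 and 10.4 against 5.97 and 5.05, both higher in all 4 pairs (adjusted p = 0.388 and 0.466). The Mir30 family, known to restrain Runx2, was represented by Mir30a (71.0 and 48.2 against 59.7 and 79.8) and Mir30d (52.5 and 55.8 against 49.1 and 57.3). In both the groups overlapped, as they did in Mir206, Mir100, Mir125b-2 and Mir133a-1. Over all 14 peaks of the 18 genes, 0 were called, where 0.0563% of all peaks were. At an unadjusted p under 0.05 (limma), 2 were higher and 1 lower, where 7.49% and 8.87% of all peaks were.

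Of 30 annotated miRNA genes of senescence, ageing and inflammation, 21 had a peak and 12 had one among the 301, in 5 peaks. Of these 5, 0 were called and 0 had an unadjusted p under 0.05 (limma). Over all peaks 0.0563% were called, and 7.49% were higher and 8.87% lower at that unadjusted p. Mir34a, a target of p53, had 9.90 and 18.9 in the old samples and 13.3 and 13.7 in the young samples, with a log2 fold change of 0.027 and an SE of 0.31. Mir146, which NF-kB induces, had 37.4 and 25.6 against 23.6 and 30.3, with a log2 fold change of 0.21. Mir155, a microRNA of activated immune cells in the host gene Mir155hg, had 15.5 and 6.71 against 9.29 and 17.5, with a log2 fold change of -0.29. In these 3 the groups overlapped. The peak near Mir96, Mir183 and Mir182, one cluster, had 21.5 and 21.7 against 14.9 and 14.5, higher in all 4 pairs, with a log2 fold change of 0.52 and an SE of 0.26 (adjusted p = 0.326). The 11 genes of the let-7 family, known for differentiation and ageing, had 3 peaks, each 8000 bp or wider or at a protein-coding start, and thus none among the 301. Of these 3 peaks 0 were called, with 1 higher and 0 lower at an unadjusted p under 0.05.

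The width and promoter limits left out the peak that moved most among the senescence genes. It overlapped Mir106b, Mir93 and Mir25, a cluster related to Mir17-92, at 1824 bp from a protein-coding start. It had 18.9 and 14.9 against 30.2 and 30.6, with a log2 fold change of -0.82 (unadjusted p = 0.00405, adjusted p = 0.106). Of the markers of other cell types among the 301, Mir375, known from pancreatic islets, had 11.2 and 12.2 in the old samples against 5.64 and 5.34 in the young samples, with a log2 fold change of 0.97 (unadjusted p = 0.00771, adjusted p = 0.140).

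**Figure D5:**
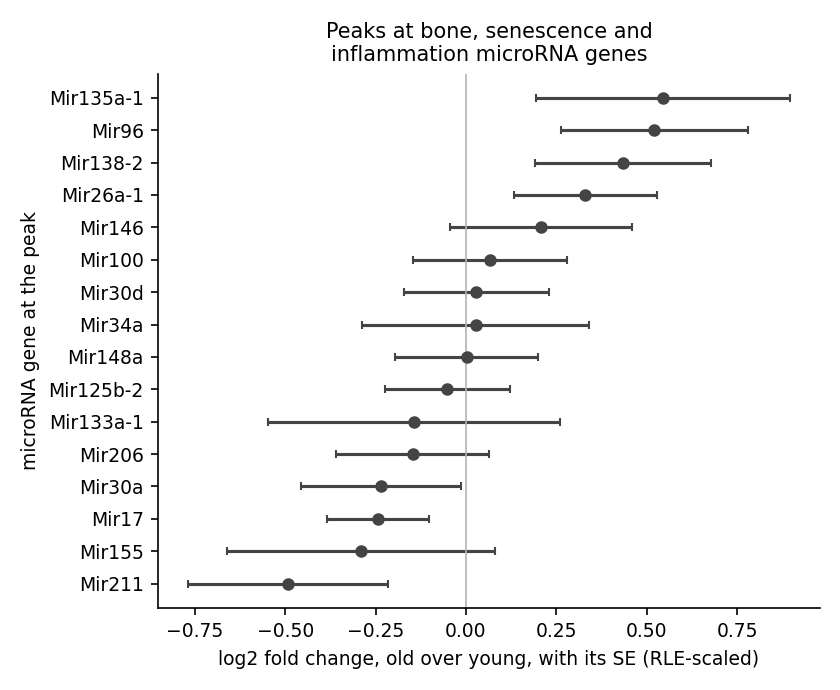
Log2 fold change of old over young MSCs with its standard error (x axis, RLE-scaled) for the 16 microRNA peaks at genes of the bone, senescence and inflammation lists (y axis, closest miRNA gene). The values run from -0.49 at Mir211 to 0.54 at Mir135a-1, and in no case did the adjusted p pass 0.01, where it did for 0.0563% of all peaks.

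The Mir17-92 peak was the strongest of the 301 per kb, at 67.2. It overlapped an exon of the host lncRNA gene Mir17hg, had a GC content of 59.4% and held Mir17 at its end, with the 5 other hairpins shown above from 51 to 627 bp beyond it. Scaled values were 284 and 234 in the old samples and 327 and 284 in the young samples, with means of 259 ± 35.6 and 306 ± 30.5 (SD, n = 2). The log2 fold change was -0.24 with an SE of 0.14 and an adjusted p of 0.410 that missed the threshold. The lower young value and the higher old value were nearly equal. Without old replicate 1 the log2 fold change was -0.38 with an adjusted p of 0.00279. The next 4 in accessibility per kb were at Gm23935, Gm22328, Gm22420 and Gm47299, with 59.6, 56.5, 53.9 and 49.4 and log2 fold changes of 0.49, -0.077, 0.020 and -0.13. The Gm23935 peak is uncertain, since 48.9% of its 31-base words were single-copy.

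The 3 other peaks at the most hairpins were weaker per kb. On chromosome 12, in the imprinted Dlk1-Dio3 region, 1 peak, chr12:109724401-109729400, lay at 10 miRNA genes, Mir381, Mir376a and Mir539 among them. It had scaled values of 34.0 and 29.6 in the old samples against 30.5 and 28.5 in the young samples, with a log2 fold change of 0.10. A second peak there, chr12:109742101-109744800 in the host gene Mirg, lay at Mir541, Mir409, Mir412, Mir369, Mir410 and a Gm-named gene, with 30.6 and 16.8 against 18.6 and 14.8 and a log2 fold change of 0.43. On chromosome 7, the peak over the Mir290 cluster, known from embryonic stem cells, lay at 6 hairpins and had 6.88 and 11.0 against 6.64 and 5.64, with a log2 fold change of 0.45. Per kb these 3 peaks held 6.13, 7.48 and 6.28, against the median of 13.4 over all microRNA peaks. Both clusters also had a peak that fitted lower in old MSCs. The Dlk1-Dio3 peak at Mir3072, in Mirg, had a log2 fold change of -0.11. The peak within 1 kb of Mir293, Mir294 and Mir295, also of the Mir290 cluster, had a log2 fold change of -0.29 or lower.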

How the data were processed

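The authors deposited a score per sample, named RPKM, for each of 117282 peaks of a common list (mm10), which they made by scaling counts to the library total. It was not divided by peak width, and 100% of the values were whole multiples of 1 step (tolerance 0.01). The labels' processing notes name Bowtie2 and Picard. The paper's methods describe chromstaR for hypoxic and normoxic cells of young mice, and the calling of these peaks is not given in the sources used here. Values were divided by RLE factors and log2(value + 1) was tested with limma 3.58.1 in R 4.3.3 (trend and robust moderation, Benjamini-Hochberg over all peaks, adjusted p under 0.01). The limma step was tested on simulated data. Alternatives were other scalings, pseudocounts, filters, moderation, limma-voom, a GC and width correction, a replicate block, narrower member rules and leaving out each sample. Peaks were annotated with GENCODE vM21 and Python 3.11.15. The members and gene lists were chosen with earlier results of these data known. Named were peaks past the threshold, the 5 largest changes each way that held in all 4 pairs, peaks of listed genes, the 5 strongest per kb and the 3 with most miRNA genes (4 with ties).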

Additional observations from a re-analysis of the deposited data

How the results depend on the processing

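Counts of called peaks were small and unsteady. In place of 0 lower and 1 higher, there were 3 and 0 with the values as deposited (1333 and 52 of all peaks), 2 and 4 at an adjusted p under 0.05 (904 and 412 of all peaks), and from 0 to 15 and from 0 to 19 when 1 library was left out (0 to 6388 and 8 to 3925 of all peaks), where a lone sample was assumed to vary like the other group. The higher call was also lost (0) with pseudocount 0.1, with a filter on low values and with moderation without trend and robust fitting. In these settings 24, 15 (of 87961 tested) and 0 of all peaks were called in either direction, against 66 in the main fit. Replicate numbers did not pair the samples (correlation of same-numbered deviations -0.0993), and a replicate block gave 2 lower and 4 higher calls (907 and 362 of all peaks).

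The RLE-scaled median of 0.12 became -0.154 with the values as deposited and ran from 0.065 to 0.163 with 1 library left out. The deposited median became 0.117 under quantile normalization and ran from -0.361 to 0.0031 with 1 library left out. As deposited, 106 peaks (35.2%) were lower in all 4 pairs and 33 (11.0%) higher, against 43.5% and 7.56% of all peaks. Of the 148 overlapping peaks, 24 (16.2%) were lower and 58 (39.2%) higher on the RLE scale, against 23.9% and 24.6% of distal peaks. With 1 library left out, from 80 to 94 were lower and from 123 to 158 higher. Those counts need only 2 pairs to hold, so they are not comparable with counts over 4 pairs. Without the Mir344 peaks, an alternative chosen after seeing the data, the median was 0.13. Of the 294 peaks left, 46 (15.6%) were lower in all 4 pairs and 101 (34.4%) higher, against 24.2% and 23.2% of all peaks.

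Among single peaks the sign turned only where the log2 fold change was small. As deposited, values were -0.238 (Mir34a), -0.282 (Mir148a), -0.217 (Mir100), -0.0733 (Mir146), -0.178 (Mir381), -0.255 (Mir30d) and -0.267 (Gm22420). After GC and width correction they were 0.0089 (Mir30a), -0.17 (Mir34a), -0.125 (Mir148a), 0.103 (Mir125b-2), -0.0861 (Gm22420) and 0.109 (Mir133a-1), and under quantile normalization -0.0091 (Mir34a). With 1 library left out the ranges were -0.441 to 0.146 (Mir206), -0.51 to 0.0395 (Mir30a), -0.408 to 0.461 (Mir34a), -0.091 to 0.0956 (Mir148a), -0.327 to 0.173 (Gm22328), -0.828 to 0.105 (Mir344d-3), -0.099 to 0.232 (Mir100), -0.0581 to 0.472 (Mir146), -0.303 to 0.0495 (Gm47299), -0.0803 to 0.138 (Mir30d), -0.287 to 0.184 (Mir125b-2), -0.84 to 0.257 (Mir155), -0.369 to 0.409 (Gm22420) and -0.586 to 0.298 (Mir133a-1). Causes were not tested. The planned edgeR fit was not run, because the deposited unit is a score, and limma-voom on the recovered counts was run instead.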

Other observations

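Of the 54 microRNA peaks with an unadjusted p under 0.05, 5 in named protein-coding host genes that the rule for named peaks did not reach are given here. They were picked after their values were seen, and each adjusted p (limma) was above 0.01. The peak 443 bp from Mir7117, in Ank, which encodes a transmembrane protein of pyrophosphate transport in mineralizing tissue, had scaled values of 17.2 and 14.9 in the old samples and 8.62 and 7.72 in the young samples, with a log2 fold change of 0.90 (adjusted p = 0.133). The peak 770 bp from Mir6962, in the activin receptor gene Acvr1b, had 19.8 and 26.8 against 16.6 and 11.3, with a log2 fold change of 0.71 (adjusted p = 0.214). The peak over Mir6939 in Akt1, which encodes a kinase of insulin and growth factor signalling, had 39.2 and 39.3 against 26.5 and 29.1, with a log2 fold change of 0.48 (adjusted p = 0.288). The peak over Mir7001 in Cd82, which encodes a membrane protein of the tetraspanin family, had 12.0 and 13.1 against 7.30 and 6.83, with a log2 fold change of 0.75 (adjusted p = 0.234). In all 4 both old values were above both young values, and GC content was 46.7%, 52.1%, 54.4% and 55.1%, against a median of 45.3% in distal peaks. In the opposite direction, the peak over Mir466q in an intron of Tnik, which encodes a kinase of Wnt signalling, had 65.8 and 44.8 against 72.0 and 78.4, with a log2 fold change of -0.46 (adjusted p = 0.286).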
